A study of Mus musculus with 15 samples.

Results

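Motile cilia genes were followed across the conversion of mouse astrocytes into induced neurons by chemicals. The members were chosen by a rule on symbols, set with earlier results of these data known. They are Foxj1, Mcidas, Ccno, Rfx2, Rfx3 and Tppp3, together with every symbol of the Dnah, Dnaic, Dnal, Dnaaf, Rsph, Cfap, Tekt and Drc families given in the rule. This gave 56 genes of the 24346 symbols in the expression table. The table held 15 brain-derived RNA libraries from mice of the C57BL/6 strain, with 3 libraries in each of 5 groups. D0 is the group of astrocytes, D4, D8 and D16 are chemical-induced neurons after 4, 8 and 16 days, and PN is the group of primary neurons. No genotype, transgene, age or named chemical accompanied any group in the labels, and whether the libraries of a group came from separate cultures was not said. The p-values below therefore rest on the scatter of these libraries alone, which could be technical.

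Motile cilia are beating hair-like projections built on a microtubule core, the axoneme. Outer and inner dynein arms drive the beat, radial spokes and the nexin-dynein regulatory complex control it, and cytoplasmic assembly factors preassemble the arms. In the brain, motile cilia line the ventricles on multiciliated ependymal cells and move cerebrospinal fluid. The forkhead factor Foxj1 and the RFX factors Rfx2 and Rfx3 switch on cilia genes, and Mcidas (multicilin) and its neighbour Ccno act in the mass production of basal bodies. RFX factors bind the X-box, an imperfect inverted repeat, in the promoters of cilia genes.

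The X-box is shown here because members that fell, a member that rose and members that were not called each include some with a match, although most members searched have none. RefSeq promoter windows (GRCm38.p6, 250 bases before to 50 after the start of a gene) were found for 49 members. An X-box, searched on both strands, was present in 9 of the 49 (18.4%), against 1.75% of 27025 symbols with a window. The short motif GTTGCC, which lies within some X-box matches but not those of Dnaic1 and Cfap45, was in 20 of 49 (40.8%), against 14.1% of all symbols, and the forkhead core GTAAACA was in 4 of 49 (8.16%), against 4.05%. Each line gives 1 match with its flanks, 5′ to 3′ on the strand of the gene, with the X-box in capitals. Dnaic1, Dnaic2 and Cfap45 are axonemal genes that were lower in the induced cells, and Dnaaf2, Rsph3b and Tekt2 are members that were not called lower at D16.
Dnaic1, chr4:41569767-41569795, plus strand: gcctgtcgGTTGCTGGGTAACcgcgtcag
Dnaic2, chr11:114727378-114727406, plus strand: cggccaggGTTGCTAGGCAACtggtaaac
Cfap45, chr1:172521103-172521132, plus strand: gttcttggGTTGCTATGGTAACgcgtcagc
Dnaaf2, chr12:69198425-69198454, minus strand: tcccaggcGTTACTATGGCAACaaagcacg
Rsph3b, chr17:6948327-6948355, minus strand: aacctcggGTTGCTCGGCAACcgatgggg
Tekt2, chr4:126325697-126325725, minus strand: agggggcgGTTGCTCGGCAACcagagccg

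Ccno was the only tested member that rose in the induced cells, and its match lies farther from the start, at positions -219 to -206.
Ccno, chr13:112987552-112987801, plus strand, the 250 bases before the start: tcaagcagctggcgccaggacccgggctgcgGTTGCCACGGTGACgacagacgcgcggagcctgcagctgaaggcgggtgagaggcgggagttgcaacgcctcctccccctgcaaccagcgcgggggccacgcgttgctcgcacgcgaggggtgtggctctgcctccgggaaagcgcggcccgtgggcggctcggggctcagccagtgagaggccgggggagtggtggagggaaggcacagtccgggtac
Cfap44 and Cfap58, which were too low to test, held the other matches. Among members with a window, a match was present in 3 of 15 that were lower at D16 and in 3 of 9 that were not called. Foxj1, Rsph1 and Tppp3, which were lower at D16, had no window and were not searched. A match of letters is a description of the window and not a bound site.

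The label of these genes as ependymal was checked against 21 ependymal markers, 5 of which also stand in other lists used here. Summed marker FPKM was 8636 to 10856 in D0 and 1230 to 2027 in D16, most of it from Vim and Acta2, which other cells express. In D0, 14 of the 21 averaged 5 FPKM or more, among them Id4 (88.0), Pltp (87.0), Rarres2 (38.6), Mia (11.9) and the cilia gene Dynlrb2 (5.32). Other markers were low in D0: Tmem212 was listed at 0 in all 3 libraries, and Ccdc153 averaged 0.340, Fam216b 0.517, 1110017D15Rik 0.961 and Hdc 0.191 FPKM. The markers thus divided on the ependymal part of the label, whether D0 held ependymal cells was not tested, and the genes are called motile cilia genes throughout. Summed FPKM of 14 astrocyte markers was 947 to 2120 in D0, 63.6 to 75.8 in D16 and 191 to 356 in PN. Fibroblast and mural markers summed to 2008 in D0 replicate 1, 8074 in replicate 2 and 3110 in replicate 3, and to at most 87.2 in any other library.

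Values are FPKM, fragment counts scaled to transcript length and to the mapped fragments of the library, so levels are per length. Testing was limited to genes with 1 FPKM or more in 3 or more of the 15 libraries, and changes are on the log2(FPKM + 1) scale, which understates the change of low genes. A gene was called higher or lower when limma gave an adjusted p below 0.05 over 13983 genes and the change was at least 1 on that scale. Of the 56 members, 29 were tested. For 8 of these the filter was met only with the D0 libraries, so it favoured members that are higher in D0. The counts below describe the tested members without standing for the whole set. In these bulk libraries, fewer cells of a type and less RNA per cell cannot be told apart.

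Summed over all 56 members, the level was 573 ± 98.7 FPKM in D0, 224 ± 18.1 in D4, 191 ± 6.06 in D8, 165 ± 21.1 in D16 and 267 ± 4.59 in PN (SD, n = 3 each). The D0 libraries were at 459, 631 and 629 FPKM, above all 12 others, which ran from 145 to 272. Cfap36 had the highest mean of the members over all 15 libraries, although in D0 replicate 2 Foxj1 (151 FPKM) was above it (147 FPKM). Without Cfap36 the sums were 440, 149, 132, 118 and 188 FPKM in the same order. A group mean of 1 FPKM or more was reached by 32 members in D0, 17 in D4, 16 in D8, 18 in D16 and 18 in PN. Foxj1, Cfap36, Tppp3 and Rsph1 made up 74.2% of the fall in the summed level from D0 to D16, which was 408 FPKM.

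**Figure D1:**
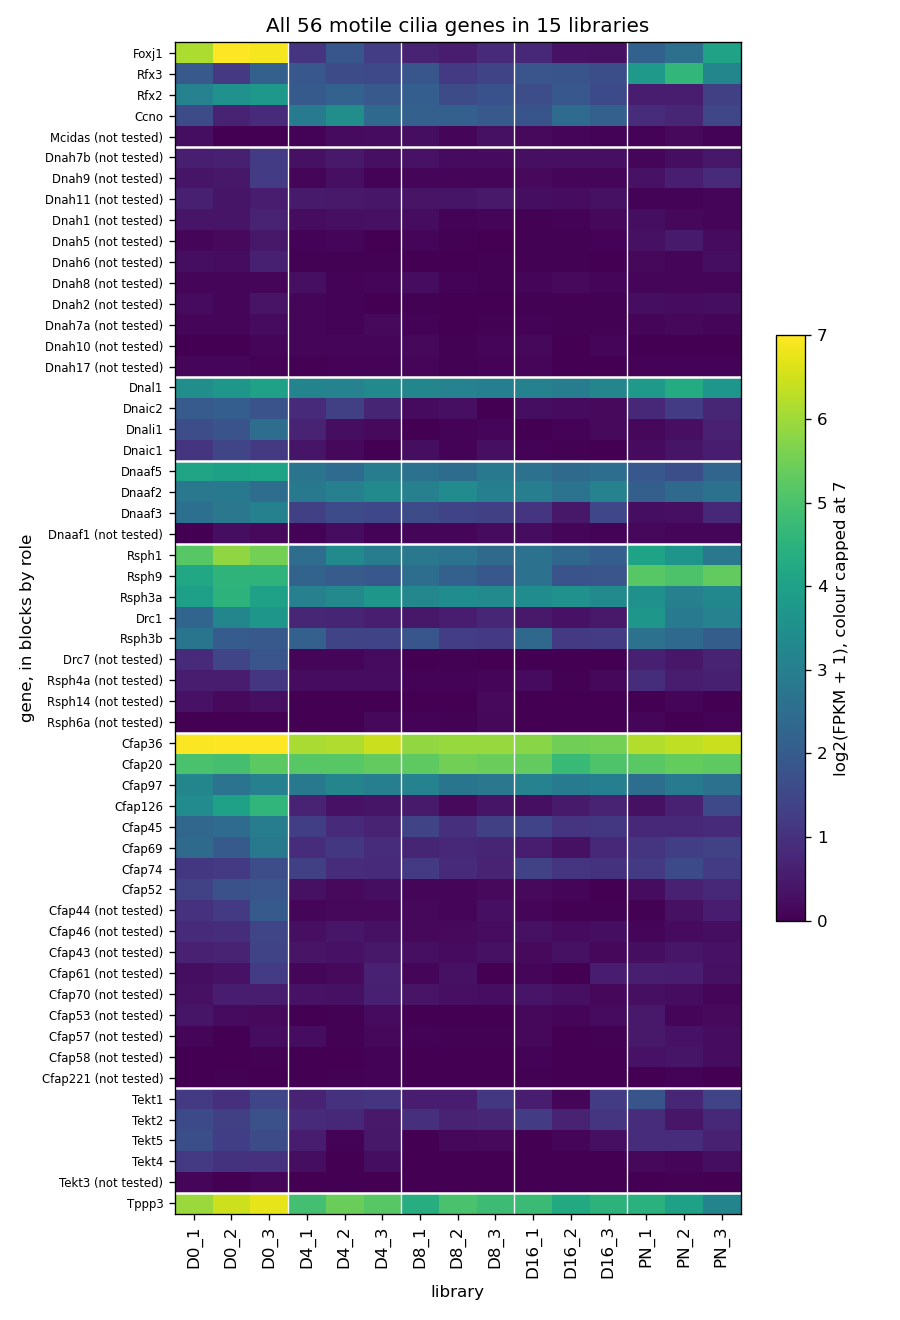
Level of each of the 56 motile cilia genes (rows, in blocks by role) in each of the 15 libraries (columns), as log2(FPKM + 1) with the colour capped at 7. Foxj1, Rsph1, Rsph9, Cfap126 and Drc1 are each brighter in D0 than in D4, D8 and D16. The dynein heavy chains are dark in all groups. Rsph9 and Drc1 are also brighter in PN than in D4, D8 and D16.

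In D4 against D0, 15 of the 29 tested members were lower (51.7%, where 14.2% of all tested genes were lower), and 1 was higher (background 13.6%). In D8 against D0 the counts were 18 lower (62.1%, background 16.9%) and 1 higher (background 15.5%). In D16 against D0 they were again 18 lower (62.1%, background 18.7%) and 1 higher (background 16.6%). In PN against D0, 12 were lower (41.4%, background 23.9%) and 1 was higher (background 17.1%). The median change of the tested members was -1.05, -1.33, -1.40 and -0.85, beside -0.01, 0.00, -0.01 and -0.12 over all tested genes. Because 8 of the tested members met the filter only with D0, the fit was repeated on genes that reach 1 FPKM in at least 3 of the 12 libraries outside D0, a setting chosen after seeing the data. Of the 21 members left, 10 were lower in D4 (47.6%, with 12.8% of all genes left), 11 in D8 (52.4%, 15.3%), 11 in D16 (52.4%, 17.1%) and 8 in PN (38.1%, 22.6%). All 4 comparisons share the same D0 libraries and so are not independent of each other. Every member called had libraries that did not overlap between the groups compared. The share without overlap among all called genes was not computed, so this is no result about the members.

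Among the regulators, Foxj1, the forkhead factor of the motile cilia programme, had the largest fall. Foxj1 was at 69.0, 151 and 118 FPKM in D0, at 1.11, 2.65 and 1.43 in D4, at 0.578, 0.442 and 0.796 in D8, and at 0.712, 0.273 and 0.251 in D16. PN libraries were at 3.55, 4.99 and 15.4 FPKM. The D0 libraries lay far above all others, and the PN libraries lay above all induced libraries. The change of Foxj1 from D0 was -5.35 ± 0.39 in D4 (SE, adjusted p = 5.1e-08), -6.27 ± 0.39 in D16 (adjusted p = 4.3e-09) and -3.82 ± 0.39 in PN (adjusted p = 4.5e-07).

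Rfx2, an RFX factor, fell as well, from 7.62, 10.6 and 12.2 FPKM in D0 to 2.93, 3.62 and 2.89 in D4, 2.14, 2.75 and 1.96 in D16, and 0.457, 0.436 and 1.52 in PN. Its change was -1.75 ± 0.23 in D16 (adjusted p = 9.8e-06) and -2.65 ± 0.23 in PN (adjusted p = 7.4e-08). The induced libraries lay between D0 and PN with no overlap. Rfx3 had another pattern. It was at 2.87, 1.24 and 3.41 FPKM in D0 and at 2.59, 2.52 and 2.19 in D16, and these groups overlapped (change 0.03 ± 0.32, adjusted p = 0.95). In PN it was at 12.6, 23.9 and 8.20 FPKM, above every other library, a rise of 2.12 ± 0.32 over D0 (adjusted p = 2.6e-05). Rfx3 was the only member called higher in PN.

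Mcidas, the regulator of multiciliation, stayed at or below 0.235 FPKM in all 15 libraries, and D0 replicates 2 and 3 listed it at 0. Its neighbour Ccno, the cyclin O of the same programme, begins 6066 bases before it on chromosome 13 by their promoter windows. Ccno was at 2.10, 0.633 and 0.793 FPKM in D0, 6.55, 10.01 and 4.25 in D4, 3.46, 3.43 and 2.89 in D8, 2.52, 4.41 and 3.39 in D16, and 0.857, 0.692 and 1.83 in PN. All 9 induced libraries lay above all D0 and PN libraries. The rise over D0 was 1.86 ± 0.29 in D4 (adjusted p = 8.6e-05), 1.03 ± 0.29 in D8 (adjusted p = 0.0074) and 1.07 ± 0.29 in D16 (adjusted p = 0.0054). The D4 call was kept in all settings in which Ccno was tested, whereas the others sit at the minimum change. Without D0 replicate 2 the changes were 0.85 in D8 and 0.89 in D16, without D0 replicate 3 they were 0.92 and 0.96, and each was then below the minimum. The same held in D8 without D8 replicate 1 (0.99) or 2 (0.998), and in D16 without D16 replicate 2 (0.91). Cdc20b, the gene that shares this locus, was listed at 0 in 13 of 15 libraries.

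**Figure D2:**
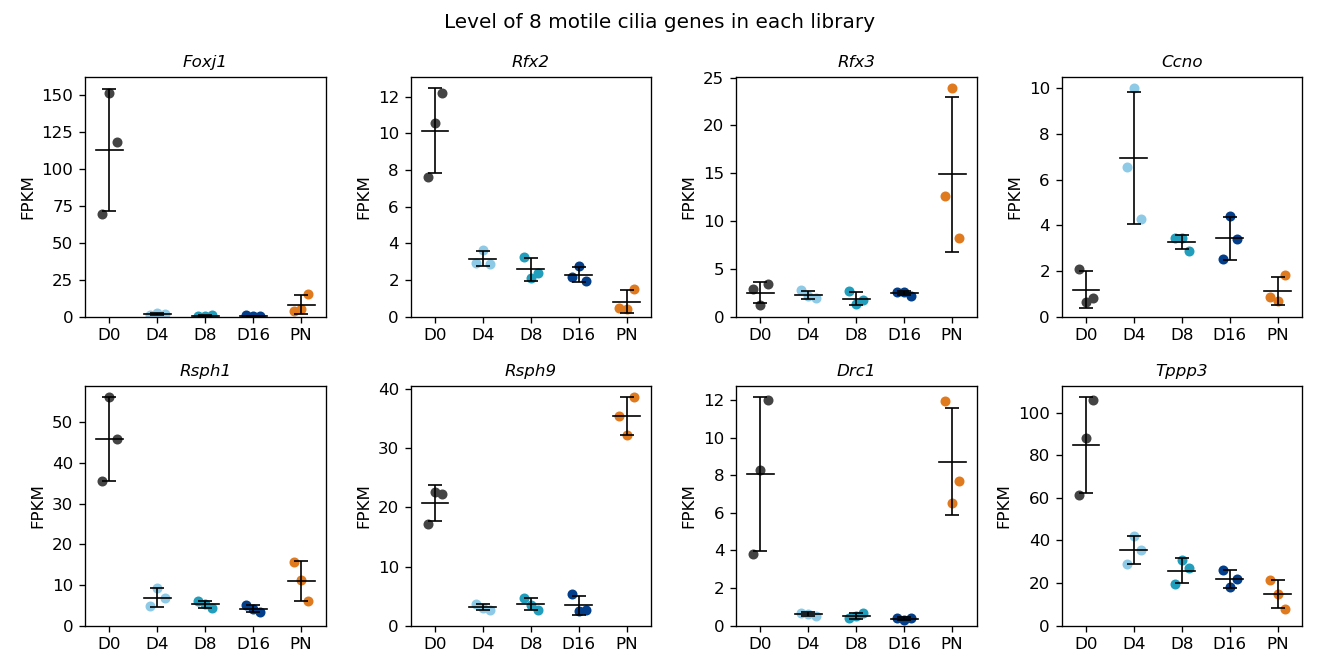
FPKM of 8 members in each library (points), with the group mean (long bar) and 1 SD (whiskers, n = 3), each panel on its own linear axis. Foxj1, Rsph1 and Tppp3 are high in D0 alone, Ccno is highest in D4, Rfx3 is high in PN alone, and Rsph9 and Drc1 are high in D0 and PN.

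The 11 dynein heavy chains, the motor subunits of the arms, were near the floor in every group, and none was tested. Their D0 means ran from 0.0282 to 0.795 FPKM, and the highest single value was 1.35, for Dnah7b in D0 replicate 3. Dnah9, an outer arm motor, was at 0.312, 0.364 and 1.33 FPKM in D0, at 0.123, 0.0821 and 0.0689 in D16, and at 0.270, 0.499 and 0.801 in PN. Dnah5, its outer arm partner, was at 0.0802, 0.141 and 0.374 FPKM in D0, at 0.0227, 0.0361 and 0.0530 in D16, and at 0.240, 0.426 and 0.164 in PN. For both genes the D0 libraries lay above D16, and D0 and PN overlapped. Summed over the 11 chains, D0 libraries held 2.32, 2.14 and 5.31 FPKM, D16 libraries 0.989, 0.800 and 0.902, and PN libraries 1.38, 1.76 and 2.15. The mean of D0 was above that of D16 for 9 of 11 chains and above that of PN for 8. Dnah11 and Dnah1 averaged 0.436 and 0.414 FPKM in D0. Dnah11 shares 642 exon bases with Cdca7l, Dnah1 551 with Gm35823 and Dnah9 495 with Gm12296, each on the opposite strand. Dnah7a and Dnah7b are near-identical, so how reads were split between them is uncertain.

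Of the 4 intermediate and light chains, which hold and regulate the motors, 3 fell by D16, where 18.7% of all tested genes were lower. Dnaic2, an outer arm intermediate chain, was at 3.05, 3.22 and 2.45 FPKM in D0, 0.795, 1.496 and 0.658 in D4, 0.200, 0.152 and 0.134 in D16, and 0.765, 1.34 and 0.686 in PN. D0 overlapped with none of these groups, and D16 was below D4 and PN. Its change was -1.74 ± 0.18 in D16 (adjusted p = 9.9e-07) and -1.03 ± 0.18 in PN (adjusted p = 0.00015), where the call sits at the minimum change: it was lost without D0 replicate 1 (-0.998) or 2 (-0.97), and without PN replicate 1 (-0.97) or 3 (-0.94). Dnaic2 was not called in D4, where its change was -0.997, but was called without D0 replicate 3 (-1.08) or D4 replicate 2 (-1.17).

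Dnali1, an inner arm light intermediate chain, went from 2.15, 2.44 and 4.68 FPKM in D0 to 0, 0.0434 and 0.128 in D16 (-1.90 ± 0.22, adjusted p = 2.1e-06). Dnaic1, the partner of Dnaic2, went from 1.06, 1.78 and 1.29 FPKM in D0 to 0.0389, 0.0355 and 0 in D16 (-1.20 ± 0.16, adjusted p = 1.3e-05). Its calls in D4 (-1.05) and D8 (-1.04) were lost without D0 replicate 2 (-0.93 and -0.92), without D4 replicate 3 (-0.95) and without D8 replicate 2 (-0.97). Dnaic1, Dnaic2 and Dnali1 met the filter only with D0, so the filter favoured a fall from it. Dnal1, an outer arm light chain, behaved otherwise: it was at 9.99, 12.04 and 15.1 FPKM in D0, 7.49, 6.60 and 8.02 in D16, and 12.6, 18.9 and 11.9 in PN. Its D16 libraries lay below D0, but the change of -0.66 ± 0.18 was under the minimum. Dnal1 shares 384 exon bases with Pnma1 on the opposite strand, and whether reads were counted by strand is not given in the sources used here, so the transcripts of the pair cannot be told apart.

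Assembly factors split. Dnaaf5 was at 16.1, 14.6 and 15.6 FPKM in D0, 5.16, 4.35 and 4.79 in D16 and 2.70, 2.19 and 3.84 in PN, falling by 1.51 ± 0.18 in D16 (adjusted p = 3.8e-06) and by 2.09 ± 0.18 in PN (adjusted p = 7.2e-08). Dnaaf3 was at 4.84, 5.86 and 7.36 FPKM in D0 and at 1.12, 0.369 and 1.81 in D16 (-1.79 ± 0.24, adjusted p = 1.2e-05). Neither overlapped with D0. Dnaaf2 was at 5.95, 6.17 and 4.66 FPKM in D0, 6.97, 5.39 and 7.64 in D16, and 3.34, 4.37 and 5.14 in PN, and it was called in no comparison. Dnaaf2 shares 757 exon bases with Gm49383 on its strand and 1107 with 9330151L19Rik on the other, so its reads may be shared. The same holds for Dnaaf5, which shares 373 with Gm15672 on the other strand. Dnaaf3 shares 86 with Tnni3 on its strand and 281 with Gm15873 on the other. Dnaaf1 averaged 0.104 FPKM in D0 and was not tested.

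Among the radial spoke and regulatory complex genes, Rsph9 and Drc1 were low in the induced cells and high in both astrocytes and primary neurons. Rsph1, a spoke head protein, was at 35.5, 56.2 and 45.8 FPKM in D0, 4.69, 9.28 and 6.67 in D4, 5.06, 4.12 and 3.23 in D16, and 15.7, 11.2 and 5.92 in PN. Its fall from D0 was -3.18 ± 0.29 in D16 (adjusted p = 2.3e-07) and -2.04 ± 0.29 in PN (adjusted p = 1.6e-05). The D0 libraries were above all others.

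Rsph9, another spoke head protein, was at 17.2, 22.6 and 22.4 FPKM in D0, 3.71, 2.999 and 2.71 in D4, 5.29, 2.43 and 2.57 in D16, and 35.5, 32.2 and 38.7 in PN. It fell by 2.34 ± 0.23 in D16 (adjusted p = 4.3e-07). Its PN libraries lay above all D0 libraries, although the difference of 0.75 ± 0.23 was under the minimum change (adjusted p = 0.0088). Drc1, a scaffold of the nexin-dynein regulatory complex, was at 3.83, 8.30 and 12.02 FPKM in D0, 0.669, 0.640 and 0.490 in D4, 0.389, 0.276 and 0.407 in D16, and 11.95, 6.54 and 7.67 in PN. It fell by 2.62 ± 0.28 in D16 (adjusted p = 1.3e-06), and D0 and PN overlapped (0.18 ± 0.28, adjusted p = 0.61).

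Rsph3a and Rsph3b, near-identical copies of a spoke stalk gene whose reads may be split between them, were not called in any comparison. Rsph3a was at 14.5, 22.0 and 15.01 FPKM in D0 and at 9.54, 10.7 and 8.98 in D16, with no overlap (-0.74 ± 0.20). Rsph3b was at 5.58, 3.11 and 2.84 FPKM in D0 and at 4.09, 1.29 and 1.38 in D16, with overlap. Rsph3a shares 298 exon bases with E430024P14Rik and Rsph3b 90 with Gm49719, each on the opposite strand. The other members of this class, Drc7, Rsph4a, Rsph14 and Rsph6a, were not tested, and Drc7 went from 0.816, 1.78 and 2.61 FPKM in D0 to listed at 0 in all 3 D16 libraries.

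Of the 17 Cfap genes, cilia and flagella associated proteins of varied function, 8 were tested and 5 fell by D16. Of all tested genes, 18.7% were lower there. Cfap126 was at 9.34, 14.97 and 23.3 FPKM in D0, 0.222, 0.409 and 0.604 in D16, and 0.250, 0.566 and 1.91 in PN, a change of -3.50 ± 0.31 in D16 (adjusted p = 1.4e-07) and -3.15 ± 0.31 in PN (adjusted p = 2.6e-07). Cfap126 and Cfap52 met the filter only with D0. Cfap36, the member with the highest mean level, was at 123, 147 and 129 FPKM in D0, 68.0, 70.2 and 86.5 in D4, 57.2, 59.7 and 59.3 in D8, 52.7, 43.7 and 45.3 in D16, and 72.0, 79.5 and 85.0 in PN. Its D0 libraries lay above all others, and it was called at D8 (-1.16 ± 0.13) and D16 (-1.48 ± 0.13, adjusted p = 1.9e-07).

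Cfap45, which lies inside the axonemal tubules, was at 3.96, 4.43 and 6.77 FPKM in D0 and at 1.66, 1.12 and 1.19 in D16 (-1.36 ± 0.21, adjusted p = 4.1e-05). Cfap20 and Cfap97 were called in no comparison. Cfap20 ran from 29.6 to 36.5 FPKM in D0 and from 26.0 to 38.9 in D16, and Cfap97 from 5.35 to 8.25 in D0 and from 6.58 to 7.54 in D16. Their D16 changes were 0.00 ± 0.15 and 0.03 ± 0.18, with overlapping libraries. The 9 untested Cfap genes had means of at most 1.74 FPKM, the highest being Cfap44 at 0.986, 1.30 and 2.95 FPKM in D0 and 0.0689, 0.0376 and 0.0368 in D16.

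Tektins, filament proteins inside the axonemal microtubules, were low throughout, with no value above 2.54 FPKM. Tekt5 went from 2.18, 1.47 and 2.12 FPKM in D0 to 0, 0.0778 and 0.229 in D16 (-1.40 ± 0.17, adjusted p = 3.9e-06), and Tekt4 from 1.30, 1.04 and 1.01 to listed at 0 in all 3. Both met the filter only with D0, as did Tekt2. Tekt2 was at 1.97, 1.51 and 2.34 FPKM in D0 and at 1.33, 0.577 and 1.13 in D16, and Tekt1 at 1.28, 0.942 and 1.77 in D0 and at 0.451, 0.0688 and 1.32 in D16. Neither was called, and only Tekt1 overlapped. Tekt2 shares 396 exon bases with Gm12945 on the opposite strand. Tekt3 was at most 0.0722 FPKM. Tppp3, a microtubule-bundling protein found in ciliated and other cells, was at 61.2, 88.2 and 106 FPKM in D0, 28.9, 42.0 and 35.6 in D4, 26.3, 17.9 and 22.0 in D16, and 21.2, 14.97 and 7.99 in PN. It fell by 1.88 ± 0.29 in D16 (adjusted p = 4.9e-05) and by 2.51 ± 0.29 in PN (adjusted p = 1.8e-06), with D0 above all other libraries.

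**Figure D3:**
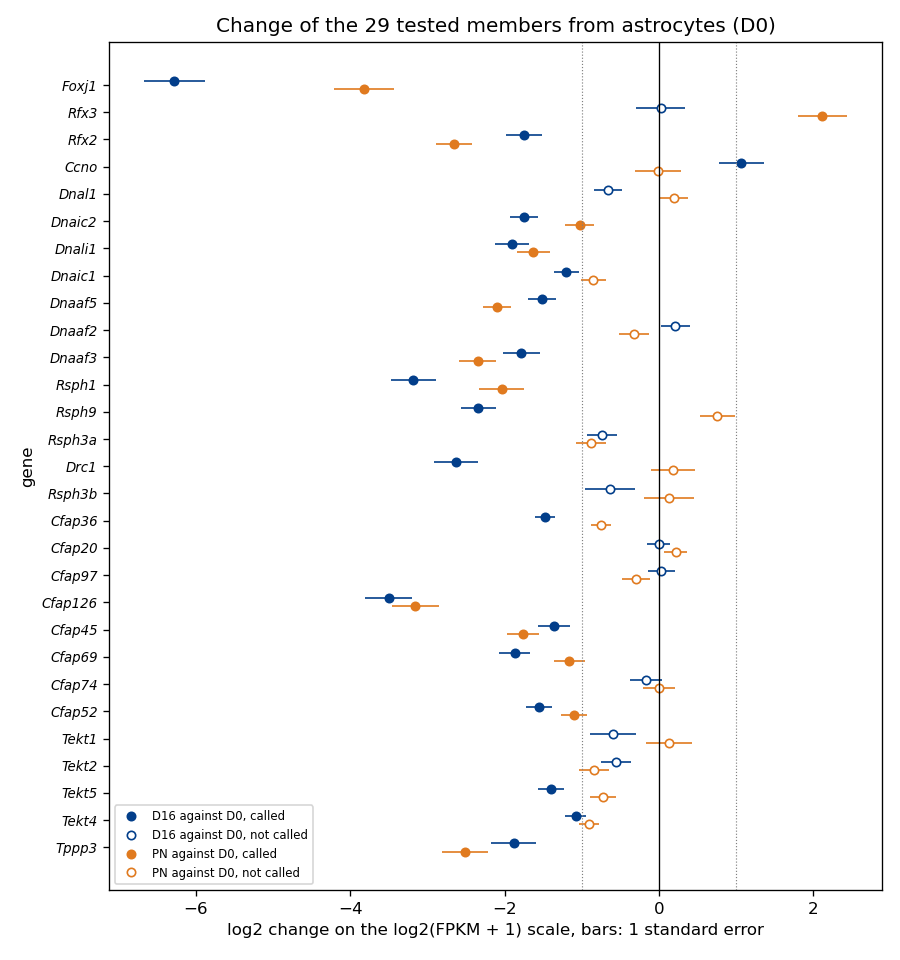
Change of the 29 tested members from D0 on the log2(FPKM + 1) scale in D16 (blue) and PN (orange), with 1 standard error; filled points were called and dotted lines mark a change of 1 in either direction. Most D16 points lie left of the line, led by Foxj1 at -6.27, Ccno alone is called to the right in D16 and Rfx3 alone in PN, and the separation between both colours is widest for Rsph9 and Drc1.

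The later steps of the time course brought no call. In D8 against D4 no member was called in either direction (background 0.501% higher and 1.51% lower), and limma gave an unadjusted p below 0.05 for 3 of them. These were Ccno (-0.83 ± 0.29, adjusted p = 0.17), Cfap36 (-0.34 ± 0.13, adjusted p = 0.24) and Dnaic2 (-0.80 ± 0.18, adjusted p = 0.025, under the minimum change). In D16 against D8 none was called by limma (background 0.0215% higher and 0.00715% lower), and 2 had an unadjusted p below 0.05, Cfap20 (-0.34 ± 0.15) and Cfap36 (-0.31 ± 0.13). With so few calls over all genes in these steps, a count of 0 is near the background.

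In D16 against PN, 5 of 29 tested members were lower (17.2%, background 15%) and 1 was higher (3.45%, background 19.6%). In this setting the share of lower members was near that of all genes. With the filter met outside D0, 5 of 21 were lower (23.8%, against 15.3% of all genes left). With a pseudocount of 0.1, 12 of 29 were lower, where 2501 of 13983 genes were. With no minimum, 13 of 29 were lower, where 3937 of 13983 genes were. The 5 of 29 called lower by limma were Rsph9 (-3.10 ± 0.23, adjusted p = 2.5e-08), Drc1 (-2.80 ± 0.28, adjusted p = 6.8e-07), Foxj1 (-2.45 ± 0.39, adjusted p = 6.4e-05), Rfx3 (-2.09 ± 0.32, adjusted p = 4.0e-05) and Rsph1 (-1.14 ± 0.29, adjusted p = 0.0032). Rsph1 was no longer called without PN replicate 1 (-0.86). Ccno was the member that was higher (1.08 ± 0.29, adjusted p = 0.0051), and it was not called without D16 replicate 2 (0.92), PN replicate 1 (0.997) or PN replicate 2 (0.93). Rfx2 (0.91 ± 0.23) was under the minimum change and was called higher without PN replicate 3 (1.17) and with a pseudocount of 0.1 (1.59).

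The D0 libraries differed among themselves. Replicate 3 held the highest D0 value for 33 of the 55 members above 0 in that group, replicate 2 for 12 and replicate 1 for 10. Among the 27 untested members replicate 3 was highest in 18 of 26 above 0. The share over all genes was not computed, so this is no result about the members. Replicate 3 also had the highest astrocyte marker sum (2120 FPKM), and its relative depth was 0.821 where replicate 1 is 1. Ttr, a choroid plexus marker, was at 64.6 FPKM in D0 replicate 2 and listed at 0 in the other D0 libraries. The 13 choroid plexus markers summed to 114, 411 and 180 FPKM in D0, 32.8 to 90.4 in D16 and 22.3 to 81.9 in PN, and Folr1 was at 1.08, 12.9 and 2.81 FPKM in D0. PN replicate 3, which had the highest PN value of Foxj1, had 87.2 FPKM of fibroblast and mural markers against 4.96 and 7.31 in the other PN libraries. The part of astrocyte, choroid plexus and fibroblast RNA in the level of the members was not tested.

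Other cilia genes, from lists outside the rule, were read in the same fit. These lists too were chosen with earlier results of these data known. Of 39 tested other motile cilia genes (axoneme, docking and assembly), 29 were lower (74.4%, background 18.7%) and 0 higher (background 16.6%) in D16 against D0. Their median change was -1.41. In PN 21 were lower (53.8%, background 23.9%) and 2 higher (5.13%, background 17.1%). With the filter met outside D0, 17 of 26 were lower in D16 (65.4%, against 17.1% of all genes left) and 11 in PN (42.3%, against 22.6%). Spa17 was at 24.0, 37.5 and 25.6 FPKM in D0 and at 2.17, 0.551 and 0 in D16 (-4.11 ± 0.37, adjusted p = 2.0e-07). Nme7 fell by 1.41 ± 0.18 (adjusted p = 7.2e-06), and Gas8, a nexin-dynein regulatory complex subunit, was at 20.8 FPKM in D0 and 21.8 in D16 on average (0.07 ± 0.15). Both genes that were higher in PN, named after their values were seen, were Spag6 (means 2.49 in D0 and 6.46 in PN) and Efcab1 (1.36 and 4.89), and without D0 replicate 1 only 1 gene of this list was called higher.

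Of 9 tested multiciliation genes, 5 were lower (55.6%, background 18.7%) and 0 higher (background 16.6%) in D16, with a median change of -1.55. With the filter met outside D0, 3 of 6 were lower (50%, against 17.1% of all genes left). In PN 4 of the 9 were lower (44.4%, background 23.9%) and 0 higher (background 17.1%). E2f4 and E2f5, E2F factors that act with Mcidas, averaged 24.99 and 19.8 FPKM in D0 and 17.3 and 17.8 in D16, and neither was called there. Gmnn, which encodes the replication licensing inhibitor geminin, fell from 40.7 to 12.1 FPKM (-1.68 ± 0.21, adjusted p = 6.1e-06).

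Intraflagellar transport, the traffic that builds primary and motile cilia alike, had 16 of 31 genes lower (51.6%, background 18.7%) and 0 higher (background 16.6%) in D16 (median -1.03). In PN 8 were lower (25.8%, near the background of 23.9%) and 3 higher (9.68%, background 17.1%), with a median of -0.40. Ift22 fell from a mean of 86.6 FPKM in D0 to 28.8 in D16 (-1.56 ± 0.20), while Ift20 (54.4 and 33.0) and Hspb11 (66.6 and 58.8) were not called. The genes higher in PN, named after their values were seen, were the kinesin subunits Kif3a, Kif3b and Kifap3. Of 34 tested genes of the BBSome and the primary cilium, 12 were lower (35.3%, background 18.7%) and 2 higher (5.88%, background 16.6%) in D16 (median -0.52). In PN 12 were lower (35.3%, background 23.9%) and 4 higher (11.8%, background 17.1%), with a median of -0.58. Smo, the Hedgehog signal transducer of primary cilia, fell from 48.5 to 15.9 FPKM (-1.55 ± 0.23, adjusted p = 2.8e-05), Ahi1 rose from 14.3 to 37.1 (1.36 ± 0.25, adjusted p = 0.0002), and Arl3 was not called.

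**Figure D4:**
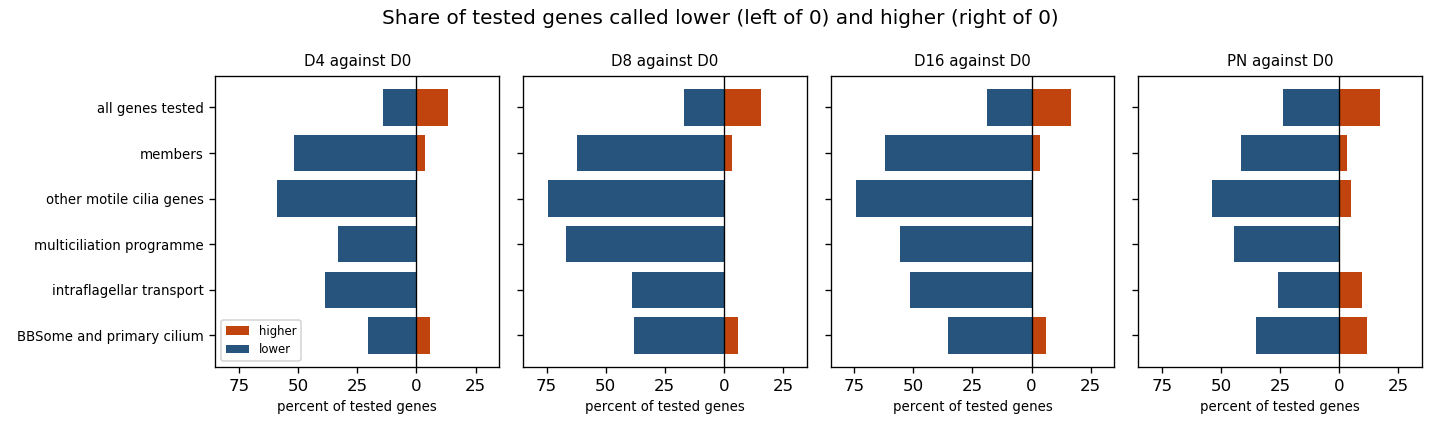
Percent of tested genes called lower (bars to the left of 0) and higher (bars to the right) against D0 in D4, D8, D16 and PN, for all genes tested, for the 29 tested motile cilia members and for 4 further lists. In D16 the lower share is 62.1% for the members, against 18.7% for all genes. Of these members, 8 met the filter only with D0. With the filter met outside D0, which is not drawn, the shares are 52.4% and 17.1%.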

How the data were processed

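The authors deposited 1 table of FPKM values with 1 column per library, and the genome was mm10 (GRCm38) per the submitters' processing notes. The aligner, quantifier and annotation are not given in the sources used here. Values were transformed as log2(FPKM + 1), and limma 3.58.1 in R 4.3.3 fitted 1 group-means model to all 15 libraries (10 residual degrees of freedom, variance trend), with Benjamini-Hochberg adjustment over 13983 genes. The fit was tried on simulated data with changes planted only in well expressed genes, so the trial does not cover members at low levels. Members and lists were chosen with earlier results of these data known. Members were named by a rule: 6 regulators and marker genes, the 5 highest of each role class by mean FPKM, and those called higher or above D0 in PN; other genes are the 3 highest of each list. Drc7, Rsph4a, Rsph14, Rsph6a, Cfap44, Cfap52, Cfap58, Dnah7a and the markers and risers given beside them fall outside this rule and were chosen after their values were seen. Gene positions come from GENCODE vM21 and promoters from RefSeq, both GRCm38. Read counts were not used here. FPKM totals ran from 548309 to 787080, and relative depth, read from the steps of low values, from 0.710 to 2.04 (D0 replicate 1 is 1), with PN at 1.71 to 2.04. Alternatives changed the pseudocount, the filter, the scaling (equal totals or quantiles), the minimum change and the libraries fitted, and added a replicate block. Same-numbered libraries deviated together only between D4 and D8 (correlations of 0.329 to 0.454). Whether the numbers pair those groups was not settled by this check, and the labels name no pairing. Relative depth of replicates 1, 2 and 3 was 0.716, 1.63 and 0.711 in D4 and 1.04, 1.70 and 0.710 in D8. Its part in these correlations was not tested, and the reported fit is unpaired.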

Additional observations from a re-analysis of the deposited data

How the results depend on the processing

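No direction was reversed in any setting. With a filter at 5 FPKM, fewer members were tested. Those lower than D0 were 8 in D4, 9 in D8, 9 in D16 and 6 in PN. Of all 11286 genes left, 1656, 1897, 2123 and 2769 were lower in the same order. In D4, D8, D16 and D16 against PN, 0 members were higher, where 1541, 1774, 1866 and 2286 of all genes left were. With the filter met outside D0, 11 members were lower in D8 and 11 in D16, since 8 fewer were tested. Of all genes left, 15.3% were lower in D8 and 17.1% in D16. With equal totals, D8 had 0 members higher, where 1979 of 13983 genes were, and the summed level of the members was 178 in D8 and 294 in PN. With quantile normalization, 0 members were higher in D8, D16 and D16 against PN, where 2203, 2439 and 2458 of 13983 genes were. Dnaic2 in PN was not called with equal totals (-0.96) or quantile normalization (-0.80), and in D4 it was called with quantile normalization (-1.15). With no minimum on the change, 2 members were higher in PN and 1 was lower in D8 against D4. In D16 against PN, 13 were lower and 4 higher. Of 13983 genes, 3917 were higher in PN, 300 lower in D8 against D4, and 3937 lower and 4741 higher in D16 against PN. With a pseudocount of 0.1, 1 member was lower in D8 against D4, and 12 were lower and 3 higher in D16 against PN. The counts over 13983 genes were 241, 2501 and 3377 in the same order. Without Cfap36 the sums were 440, 149, 132, 118 and 188.

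Leaving out each library gave 0 to 1 members higher in D8 and in D16, and 0 to 2 higher and 4 to 6 lower in D16 against PN. It gave 14 to 16, 17 to 19, 18 to 19 and 11 to 12 lower in D4, D8, D16 and PN. The shares over all genes in these fits are not given here. Members not called as reported but called without 1 library were Rsph3b in D8 (-1.01, without D8 replicate 1), in D16 (-1.01) and in D16 against PN (-1.14, both without D16 replicate 1), Rsph3a in PN (-1.003, without PN replicate 1), and Tekt1 in D16 against PN (-1.02 without D16 replicate 3, -1.01 without PN replicate 2). With a pseudocount of 0.1, Rsph3b in D8 (-1.08) and Tekt1 in D16 against PN (-1.60) were called too, and with no minimum all of these but Rsph3b in D16 against D0. With the replicate block, 0 members were called in D8 against D4 and 18 lower in D16, and the block changed no call of a member. Of 13983 genes, 77 were higher and 223 lower in D8 against D4, and 2621 were lower in D16. In the other lists, the filter at 5 FPKM left 10 other motile cilia genes lower in D16 and 7 in PN, and 2 multiciliation genes lower in D16. Of all 11286 genes left, 2123 were lower in D16 and 2769 in PN. No minimum gave 9 multiciliation and 14 transport genes lower in PN, where 5150 of 13983 genes were lower.

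The median change of all genes in PN against D0 was -0.12 as deposited, -0.01 with equal totals and 0.00 with quantile normalization, so PN changes are relative to that shift. With equal totals, 84.5% of the genes called in D8 against D4 were lower, against 75.1% as deposited. Absolute depth is not known, and members near 0, such as the dynein heavy chains, could not be tested.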
